A study of Mus musculus with 6 samples.

Results

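A set of genes tied to red blood cells was followed in tumours grown under the skin of mice: the adult alpha-globin genes Hba-a1 and Hba-a2, the adult beta-globin genes Hbb-bs and Hbb-bt, the erythroid heme synthesis gene Alas2, the red cell anion exchanger gene Slc4a1, and Bpgm, the gene for bisphosphoglycerate mutase. They are 7 of the 34745 genes in the deposited table, found by gene name, and all 7 had enough counts to be tested among 15539 genes. The set was chosen by earlier results on the same tumours: Bpgm stood among the genes with the smallest p in the HCD direction, and the other 6 were put beside it as blood genes. The diet contrast of Bpgm is therefore given as a description.

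Red blood cells carry oxygen on haemoglobin, a tetramer of alpha and beta chains, each with a heme group. Alas2 starts heme synthesis in erythroid cells, and Slc4a1 (band 3) exchanges bicarbonate for chloride across the red cell membrane and anchors its cytoskeleton. Bisphosphoglycerate mutase makes 2,3-bisphosphoglycerate from a glycolytic intermediate. That compound binds deoxygenated haemoglobin and lowers its affinity for oxygen, which is why Bpgm is best known as a red cell gene. Circulating red cells of adult mice have no nucleus, but young ones (reticulocytes) still hold globin RNA, so a piece of tissue that contains blood brings some of it into a library.

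The samples were 6 tumours from C57BL/6J mice injected under the skin of the right flank with B16F10, a cell line from a mouse melanoma. Their hosts ate either a normal diet (ND, 3 tumours) or a high cholesterol diet (HCD, 3 tumours). No genetic change, drug or age is named in the labels for either group, and the labels do not say whether the numbered tumours came from separate animals, so a p-value here speaks of the spread among these 6 samples, which may be technical. Library totals ran from 20351637 to 26228074 counts, and 3 counts, the limit that a count of 0 allows, were 0.113 to 0.146 CPM (counts per 1000000, with TMM scaling). The pigment cell genes Tyr, Dct and Mlana were at 0 counts in every library, while the hepatocyte gene Alb averaged 3611 CPM, so the tumours are called here by their label only. In bulk tissue, fewer cells of a type and less RNA per cell cannot be told apart.

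The copies within each globin pair are nearly the same sequence, which bears on every count given for them. The coding sequences of Hba-a1 and Hba-a2 differ at 1 of 429 bases, and those of Hbb-bs and Hbb-bt also differ at only 1, of 444 bases. The stretches of 60 coding bases that hold the difference are shown from the GENCODE M21 transcripts (build GRCm38), bases 351 to 410 for the alpha pair and 385 to 444 for the beta pair, counted from 1 at the A of the start codon, with the differing base in capitals.
Hba-a1: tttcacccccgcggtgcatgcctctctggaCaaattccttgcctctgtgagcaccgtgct
Hba-a2: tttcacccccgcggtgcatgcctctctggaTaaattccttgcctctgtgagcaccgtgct
Hbb-bs: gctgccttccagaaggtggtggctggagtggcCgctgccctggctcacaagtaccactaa
Hbb-bt: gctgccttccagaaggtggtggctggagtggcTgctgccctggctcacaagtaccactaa
Of all 100-base windows along the longest coding transcript, 56.5% of those in Hba-a1 and 74.5% of those in Hba-a2 occur in transcripts of the other copy too. Only annotated transcripts were compared, and not the rest of the genome. For Hbb-bs and Hbb-bt the shares are 62.6% and 54.8%. Bpgm and Slc4a1 share no such window with any other gene, and 10.99% of those in Alas2 lie where its exons overlap those of Apex2, a DNA repair gene. How reads with several matches were shared out is not given in the sources used here, so a count for a single globin copy is uncertain and sums over a pair are safer.

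The 120 bases before the RefSeq start of each gene (GRCm38.p6) are shown next. Over the 6 libraries, Hba-a1, Hbb-bs and Hbb-bt varied together, with Pearson's r of log2 CPM at 0.94 to 0.97. Bpgm followed these genes less closely (0.32 to 0.61). Hba-a2 lay nearer to Bpgm (0.82) and Hba-a1 (0.83) than to Hbb-bs (0.63) or Hbb-bt (0.65). A RefSeq promoter was matched for 6 of the 7 genes, Slc4a1 being the other. Capitals mark 4 short motifs, each searched on both strands. The letters AGATAA are a motif of GATA factors. The letters CACCC are the box bound by factors of the KLF1 family. The letters CCAAT are a box found in many promoters. The letters ATATAA are a TATA-like box. In the window of Hbb-bt a CCAAT box lies end to end with one on the opposite strand, and no motifs overlap. The motifs were picked after the sequences were seen.
Hba-a1: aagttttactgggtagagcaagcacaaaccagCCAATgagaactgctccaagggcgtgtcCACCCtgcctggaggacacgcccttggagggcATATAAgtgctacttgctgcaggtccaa
Hbb-bs: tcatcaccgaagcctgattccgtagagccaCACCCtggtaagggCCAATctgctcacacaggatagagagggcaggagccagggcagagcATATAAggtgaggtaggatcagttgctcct
Hbb-bt: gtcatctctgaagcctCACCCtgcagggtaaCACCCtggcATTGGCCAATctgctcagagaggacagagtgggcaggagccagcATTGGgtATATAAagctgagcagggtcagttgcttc
Alas2: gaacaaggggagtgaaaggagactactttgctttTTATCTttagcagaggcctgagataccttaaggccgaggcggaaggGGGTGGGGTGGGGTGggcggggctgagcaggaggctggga
Bpgm: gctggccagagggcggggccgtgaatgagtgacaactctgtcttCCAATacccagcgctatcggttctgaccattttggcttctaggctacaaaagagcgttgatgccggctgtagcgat
These windows lie at chr11:32283552-32283671 (plus strand) for Hba-a1, chr7:103827929-103828048 (minus strand) for Hbb-bs, chr7:103813924-103814043 (minus strand) for Hbb-bt, chrX:150547297-150547416 (plus strand) for Alas2 and chr6:34476236-34476355 (plus strand) for Bpgm. The window of Hba-a2 is that of Hba-a1 moved by 3 bases, with 0 mismatches over the 247 upstream bases that could be compared. Hbb-bs and Hbb-bt match at 51% of 249 bases at their best single offset. No gaps were allowed, so an inserted or lost base lowers this match, and 51% is not the identity of aligned promoters. Within 250 bases before the start, all 4 globin genes hold the CACCC box, the CCAAT box and the TATA-like box, Hbb-bs also holds the GATA motif, Alas2 holds the GATA motif and CACCC, both on the opposite strand, and Bpgm holds CCAAT alone. Among 32851 promoters of the same length, 9.988% hold AGATAA, 52.01% CACCC, 33.85% CCAAT and 9.099% ATATAA. A match is a run of letters and not a bound site, and a missing match says only that these letters are not in this window. The windows of Hba-a1, Hbb-bs and Bpgm lie wholly inside the GENCODE M21 bounds of these genes given below. Those of Hba-a2, Hbb-bt and Alas2 do so in part. The annotations thus differ on the start, and the matches hold for the RefSeq starts only.

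**Figure D1:**
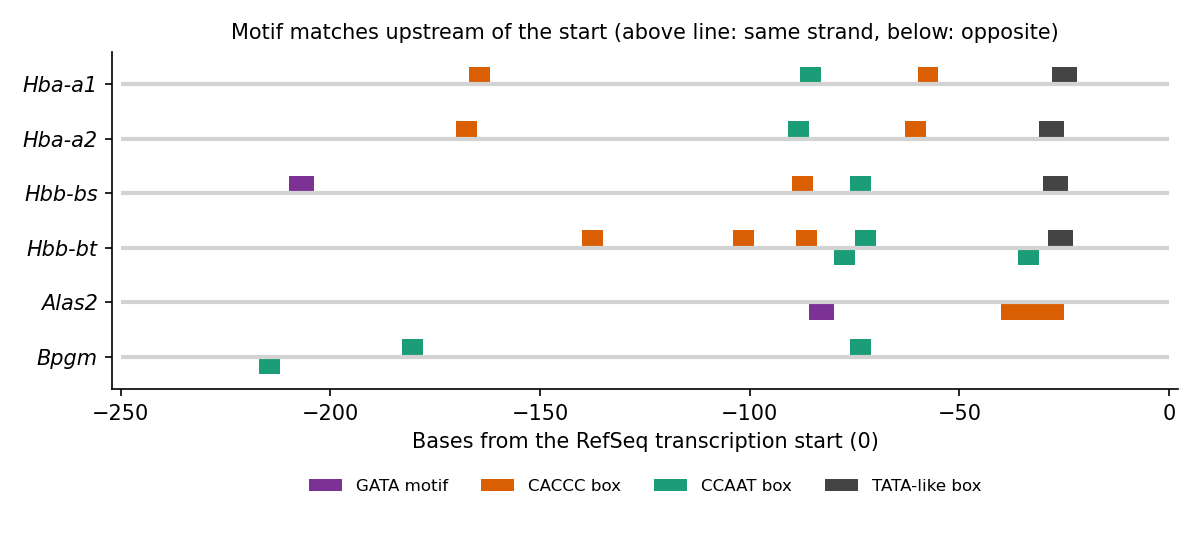
Positions of the 4 motifs in the 250 bases before the RefSeq start of 6 genes (x axis, bases from the start), with matches on the gene's own strand above the line and on the opposite strand below it. The globin genes show CCAAT and CACCC upstream of a TATA-like box, and Bpgm shows CCAAT matches only.

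Adult globin RNA was present in every tumour and differed several-fold between tumours of the same diet. Summed over the 4 genes it was 40.5, 128 and 66.9 CPM in ND 1, ND 2 and ND 3, and 54.3, 87.4 and 186 CPM in HCD 1, HCD 2 and HCD 3. ND 2 and HCD 3 were the highest of their diets, ND 1 and HCD 1 the lowest, and the diets overlapped over most of their range. The sum averaged 78.6 ± 45.1 CPM under ND and 109 ± 68.5 CPM under HCD (SD, n = 3 each), so the difference between the means was smaller than the spread within either diet. The highest library held 4.599 times the level of the lowest.

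Hbb-bs, the beta-globin gene with more counts in every library (chromosome 7, 103826534 to 103828096, minus strand), was at 21.6, 70.0 and 38.2 CPM in ND 1 to ND 3 and at 21.6, 45.4 and 94.7 CPM in HCD 1 to HCD 3. Its neighbour Hbb-bt (chromosome 7, 103812524 to 103813996, minus strand) was at 6.65, 17.4 and 8.35 CPM under ND and 6.36, 12.6 and 28.6 CPM under HCD. Both beta genes ordered the libraries of each diet in the same way, with number 2 highest in ND and number 3 highest in HCD.

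Hba-a1 (chromosome 11, 32283511 to 32284465, plus strand) was at 10.2, 31.9 and 15.5 CPM under ND and at 16.2, 23.6 and 48.0 CPM under HCD. Hba-a2, the second alpha copy (chromosome 11, 32296489 to 32297298, plus strand), was at 2.05, 9.12 and 4.76 CPM under ND and at 10.2, 5.80 and 14.8 CPM under HCD. Hba-a2 broke the order of the other globin genes in HCD 1, where it lay above HCD 2 although Hba-a1, Hbb-bs and Hbb-bt lay below it.

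Alas2 (chromosome X, 150547375 to 150570638, plus strand) was at 2.55, 4.69 and 3.15 CPM in ND 1 to ND 3 and at 2.17, 2.61 and 4.72 CPM in HCD 1 to HCD 3. It ranked the 3 libraries of each diet as the beta-globin genes did, with a smaller range of 2.18 times between the highest and the lowest library. Apex2, whose exons overlap those of Alas2, was at 16.6 to 20.3 CPM and was not highest in the libraries where Alas2 was.

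Slc4a1 (chromosome 11, 102348824 to 102366203, minus strand) was close to the limit of detection, with 3, 9 and 19 counts in ND 1 to ND 3 and 18, 5 and 11 counts in HCD 1 to HCD 3. Those counts are 0.134, 0.340 and 0.922 CPM under ND and 0.868, 0.242 and 0.536 CPM under HCD. It was highest in ND 3 and HCD 1, neither of which held the most globin of its diet, and it passed the filter on low counts through 3 libraries (ND 3, HCD 1 and HCD 3).

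Bpgm (chromosome 6, 34476207 to 34505613, plus strand) varied least of the 7 genes, 1.67 times between its highest and lowest library. It was at 15.5, 17.4 and 15.8 CPM in ND 1 to ND 3 and at 23.9, 19.95 and 25.9 CPM in HCD 1 to HCD 3, so every HCD tumour lay above every ND tumour. Of the tested genes, 4.75% had every HCD library higher than every ND library, and 6.36% had every HCD library lower. None of the 6 blood genes separated the diets in this way. Within the diets Bpgm was highest in ND 2 and HCD 3, as summed globin was, but it was higher in HCD 1 than in HCD 2.

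**Figure D2:**
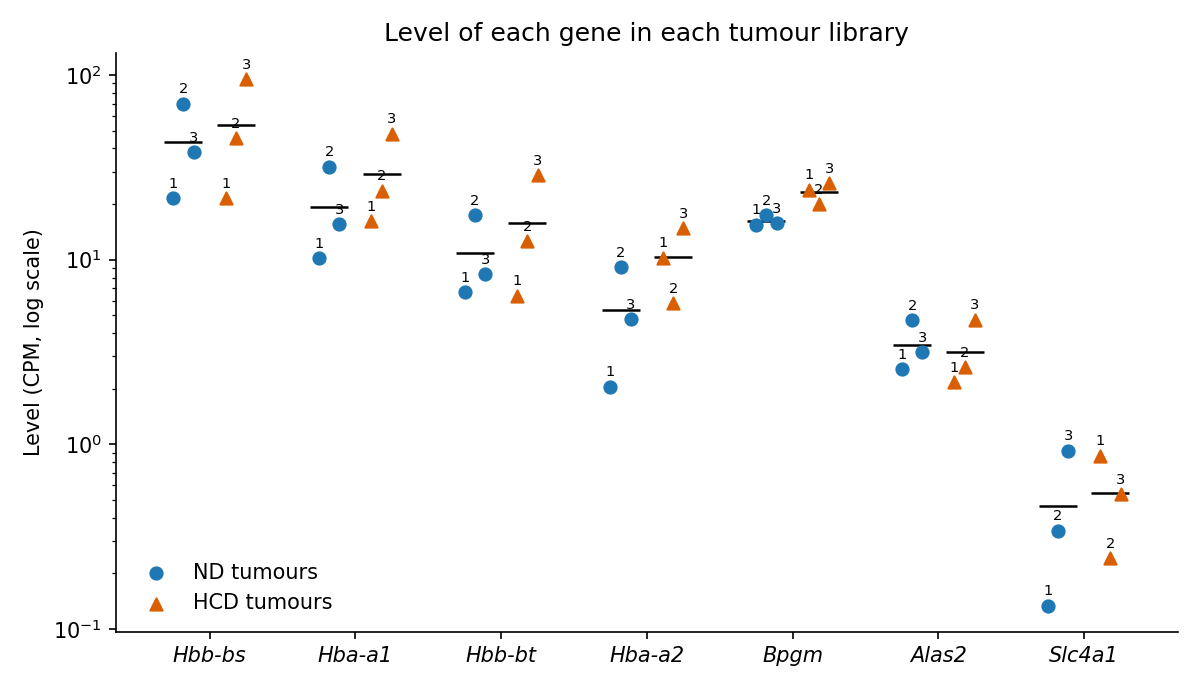
Level of each of the 7 genes (y axis, CPM on a log scale) in each library, with ND tumours as circles, HCD tumours as triangles, the number of the tumour beside each point and the mean of the 3 tumours as a bar. Bpgm lies at 15.5 to 17.4 CPM under ND and 19.95 to 25.9 CPM under HCD, while the globin genes and Alas2 overlap between the diets.

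By its mean per length of transcript, Bpgm stood between the globins and the other red cell genes. On the scale of CPM per kilobase of the longest coding transcript, the mean level over the 6 libraries was 77.3 ± 45.9 for Hbb-bs, 34.7 ± 19.8 for Hba-a1, 19.0 ± 12.2 for Hbb-bt, 14.1 ± 8.19 for Hba-a2, 8.89 ± 1.96 for Bpgm, 1.63 ± 0.551 for Alas2 and 0.112 ± 0.0724 for Slc4a1 (SD, n = 6 each). Among neighbours in that order, the ranges of the globin genes overlapped one another, and the range of Bpgm, 6.98 to 11.7, lay within that of Hba-a2, 3.71 to 26.7. In single libraries Bpgm passed Hba-a2 in ND 1 (6.98 against 3.71) and Hbb-bt in HCD 1 (10.8 against 9.05). Bpgm lay above Alas2, at 1.07 to 2.32, in every library, and Alas2 lay above Slc4a1, at 0.0295 to 0.203. The deposited FPKM values give other ratios, since they divide by a length that equals the sum of all transcripts of Hba-a1, Hba-a2 and Bpgm: 5877 bases for Bpgm, whose longest coding transcript has 2220.

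Between the diets, no member passed the test. Log2 fold changes of HCD over ND were 0.31 ± 0.59 SE for Hbb-bs, 0.60 ± 0.52 SE for Hba-a1, 0.55 ± 0.58 SE for Hbb-bt, 0.95 ± 0.55 SE for Hba-a2, -0.13 ± 0.38 SE for Alas2 and 0.26 ± 0.74 SE for Slc4a1. The adjusted p from edgeR ran from 0.839 to 0.943 over these 6 genes, and every 95% interval held 0. The widest of them, that of Slc4a1, ran from -1.50 to 2.01, and that of Hbb-bs from -1.08 to 1.71, so changes of 2-fold in either direction were within what these data allow for both genes. For Hba-a2 the interval was -0.36 to 2.26 and for Alas2 -1.02 to 0.76.

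These differences rested on single libraries. Without HCD 3 the log2 fold change of Hba-a1 was 0.05 and those of Hbb-bs and Hbb-bt turned to -0.37 and -0.19. Without ND 1 that of Hbb-bs was -0.00782, and that of Hba-a2 was 0.56. Without ND 2 the 4 globin genes had values of 0.86 (Hbb-bs) to 1.60 (Hba-a2), and Alas2 turned to 0.16, as it did to 0.08 without HCD 1. Slc4a1 turned to -0.18 without ND 1 and to -0.24 without HCD 1, and was 1.17 without ND 3.

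For Bpgm the means were 16.2 ± 1.01 CPM under ND and 23.2 ± 3.03 CPM under HCD (SD, n = 3 each). That is 1.43-fold, or 0.52 ± 0.12 SE on the log2 scale. The 95% interval, which takes no account of the other genes tested, was 0.23 to 0.81, the unadjusted p was 0.00384 and the gene stood at position 29 of 15539 by p. With adjustment over all tested genes the p was 0.839 by edgeR, 0.364 by DESeq2 and 0.861 by limma-voom, and none of these passed. Leaving out each library in turn gave values from 0.43 (without HCD 3) to 0.62 (without HCD 2). Over all genes edgeR called 0% higher and 0% lower. At an unadjusted p under 0.05 it held 1.81% higher, Bpgm among them, and 3.48% lower, while the DESeq2 Wald test called 0.00644% higher and 0.0451% lower, with no member in either direction.

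**Figure D3:**
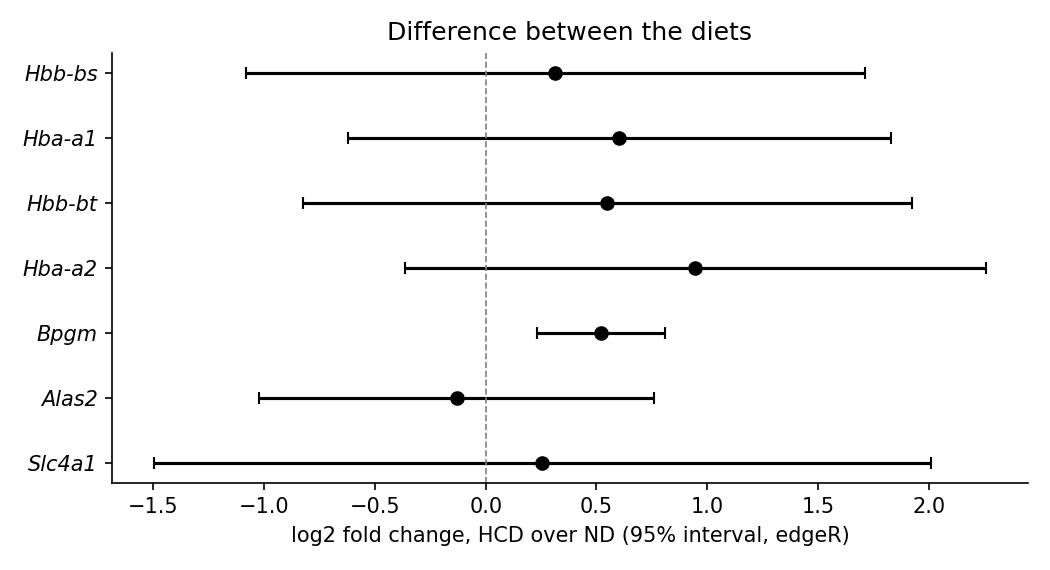
Log2 fold change of HCD over ND for each gene (points) with its 95% interval from edgeR (bars), and a dashed line at 0. The interval of Bpgm, 0.23 to 0.81, is the narrowest and lies above 0 before adjustment, and the other 6 hold 0.

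Whether Bpgm followed the blood genes from tumour to tumour was asked first by correlation of log2 CPM over the 6 libraries, with exact two-sided permutation tests (the share of the 720 pairings whose coefficient is at least as large in size) and adjustment over the 6 relations computed. With Hba-a2, Pearson's r was 0.82 (exact p = 0.0458, adjusted 0.275) and Spearman's rho was 0.94 (exact p = 0.0167, adjusted 0.1). Without HCD 3 and ND 1, the libraries farthest from the median of Hba-a2, r was 0.64. With the other alpha copy, Hba-a1, r was 0.61 (exact p = 0.211, adjusted 0.578) and rho 0.77 (exact p = 0.103, adjusted 0.308), and r was -0.19 without HCD 3 and ND 1.

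The beta genes and the other red cell genes lay lower. Pearson's r was 0.32 with Hbb-bs (exact p = 0.482) and 0.45 with Hbb-bt (exact p = 0.354), with a rho of 0.37 for both (exact p = 0.497). It was 0.11 with Alas2 (exact p = 0.803, rho 0.26, exact p = 0.658) and 0.37 with Slc4a1 (exact p = 0.435, rho 0.31, exact p = 0.564). The adjusted p of these 4 genes ran from 0.578 to 0.803 for r and was 0.658 for each rho. Without the libraries farthest from the median of the blood gene, r was 0.55 for Hbb-bs (without HCD 1 and HCD 3), 0.01 for Hbb-bt and -0.77 for Alas2 (both without HCD 3 and ND 2) and 0.69 for Slc4a1 (without ND 1 and ND 3). No relation passed after adjustment. On deviations from the mean of each diet, r was 0.59 for Hba-a1, 0.80 for Hba-a2, 0.46 for Hbb-bs, 0.50 for Hbb-bt, 0.66 for Alas2 and 0.42 for Slc4a1.

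The size of the relation was then read from a fit with diet and the summed globin level as terms, in which a slope of 1 means that a gene doubles when globin doubles. The slope of Bpgm was 0.09 ± 0.08 SE, with a 95% interval of -0.11 to 0.30, which does not reach 1, and it was 0.03 without HCD 3 and 0.17 without HCD 1. That of Alas2 was 0.59 ± 0.15 SE, with an unadjusted edgeR p of 0.00793. Its interval of 0.22 to 0.96 does not reach 1 either, and it overlaps that of Bpgm. The slope of Slc4a1 was -0.09 ± 0.59 SE, and it turned positive without ND 2, ND 3 or HCD 1 (0.09, 0.08 and 0.62). By edgeR the adjusted p was 1.00 for each of the 3, and 0% of the 15535 genes tested for a slope passed, with 1.11% at an unadjusted p under 0.05 and a positive slope, Alas2 among them, and 1.27% with a negative one. The 4 globin genes make up the term and were not tested.

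In the same fit, with the globin level held fixed, the log2 fold change of Bpgm between the diets was 0.48 ± 0.13 SE, against 0.52 without that term (edgeR adjusted p = 0.971 with the term). The ratio of Alas2 to Bpgm followed the globin level within the diets, with a slope of 0.50 on the log2 scale. An exact permutation of the globin level within the diets gave p = 0.0278, two-sided and unadjusted, the smallest that the 36 arrangements can give. This test was chosen after the values were seen. Without each library in turn the slope was 0.43 to 0.53, with an exact p of 0.0833 to 0.167, where the 12 arrangements left allow none below 0.0833. For the ratio of Slc4a1 to Bpgm the slope was 0.09 (exact permutation p = 0.889).

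Set against the summed globin level, Bpgm did not keep a fixed proportion: 100 CPM of globin stood beside 38.3, 13.5 and 23.6 CPM of Bpgm in ND 1 to ND 3 and beside 44.0, 22.8 and 13.9 CPM in HCD 1 to HCD 3. The libraries richest in globin, ND 2 and HCD 3, had the least Bpgm for their globin. Globin varied 4.599 times between libraries and Bpgm 1.67 times, so this order largely restates the globin levels. For Alas2 the same quantity ran from 2.54 CPM in HCD 3 to 6.29 CPM in ND 1. Alas2 was also lowest for its globin in ND 2 (3.65 CPM) among the ND tumours and in HCD 3 among the HCD tumours. This order therefore does not set Bpgm apart from Alas2.

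**Figure D4:**
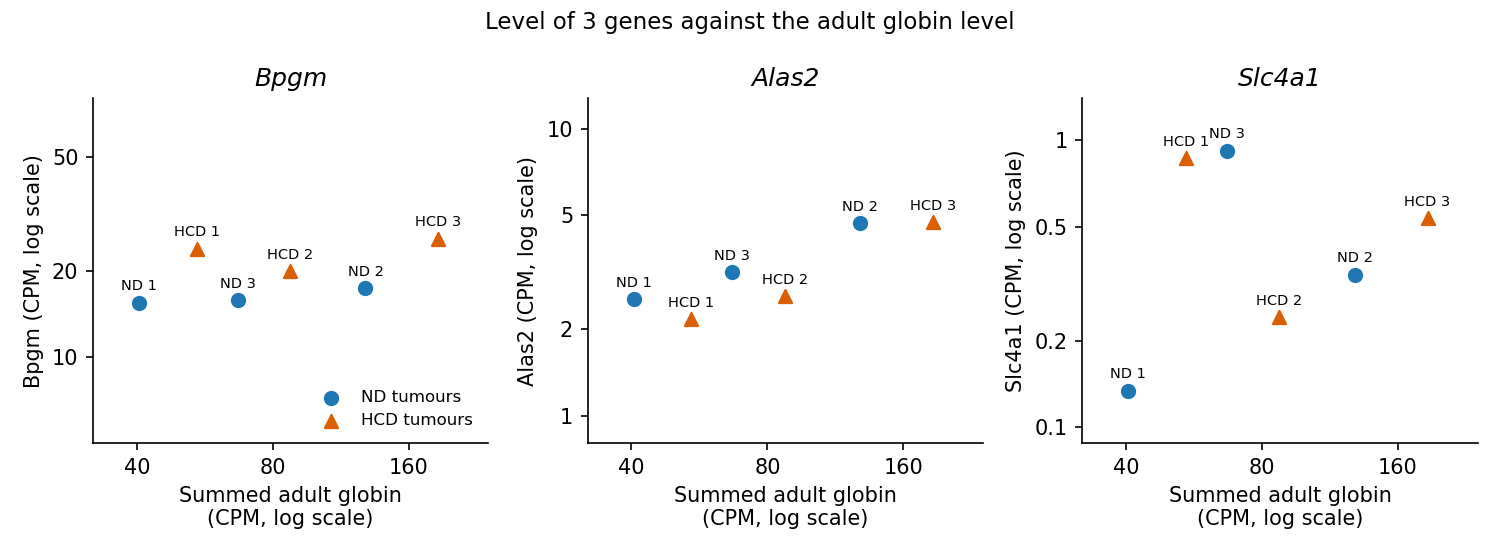
Level of Bpgm, Alas2 and Slc4a1 (y axes, CPM) against the summed level of the 4 adult globin genes (x axes, CPM), all on log scales with the same number of doublings per panel, 1 point per library. Alas2 climbs with globin within each diet, and Slc4a1 shows no order. Bpgm varies less, is also highest in ND 2 and HCD 3 within their diets, and is lower in HCD 2 than in HCD 1. Its HCD tumours (19.95 CPM and above) lie over its ND tumours (17.4 CPM and below).

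HCD 1 stood apart in the make-up of its globin counts. Alpha genes gave 48.6% of its adult globin counts (95% exact binomial interval 45.6 to 51.5), against 30.2% to 33.7% in the other 5 libraries. Within the alpha pair, Hba-a2 took 38.8% of the counts in HCD 1 (34.7 to 43.0), against 16.8% (ND 1) to 23.6% (HCD 3) elsewhere. The beta pair showed no such departure, with Hbb-bt at 22.8% of the counts in HCD 1 (19.4 to 26.4) and 17.9% to 23.6% in the others. These intervals cover counting error only, and the near identity of the copies printed above limits what a share within a pair can mean. HCD 1 also had the highest level of Mb, the muscle oxygen store myoglobin, at 22.5 CPM against 0.134 to 5.52 CPM in the other libraries. The muscle phosphoglycerate mutase gene Pgam2 (named after its values were seen) was instead highest in ND 2, at 15.7 CPM against 14.0 CPM in HCD 1. In ND 2 the alpha share was 31.9% and that of Hba-a2 22.2%. The part of muscle or of HCD 1 as a whole in these shares was not tested.

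**Figure D5:**
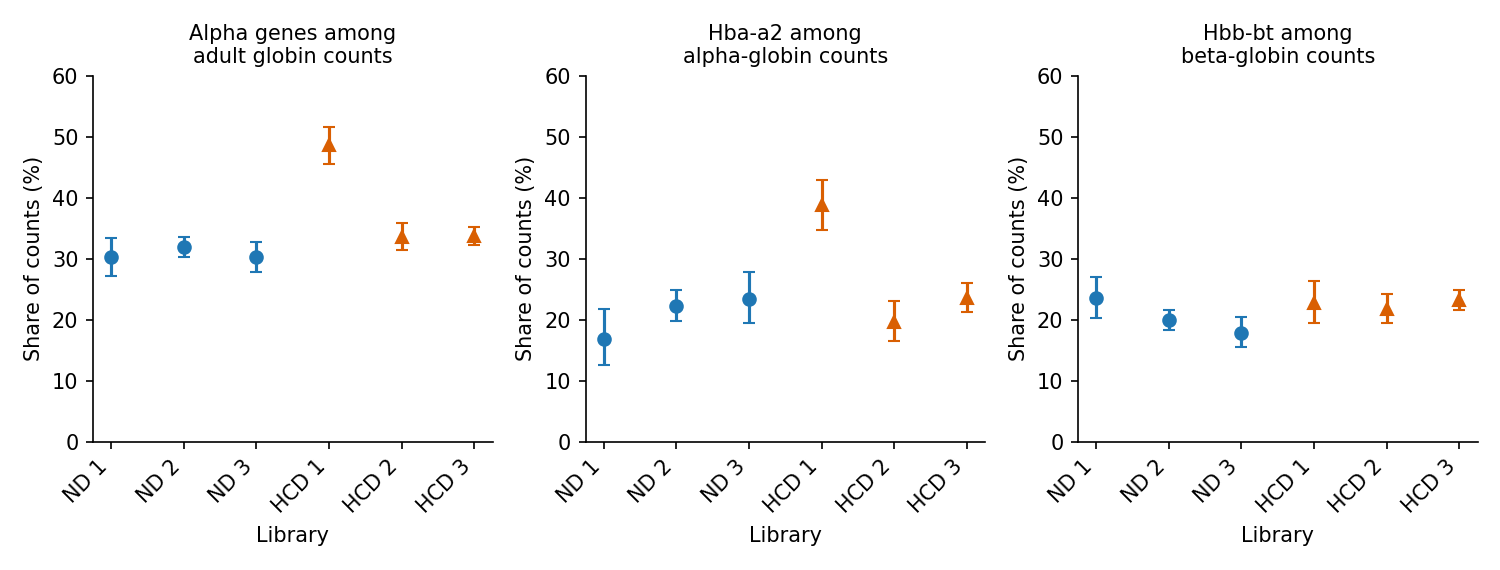
Share of counts (y axes, %) in each library for the alpha genes among all adult globin counts, for Hba-a2 among alpha counts and for Hbb-bt among beta counts, with 95% exact binomial intervals as bars. HCD 1 lies above the other 5 libraries in the first and second panels, at 48.6% and 38.8%, and among them in the third, at 22.8%.

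Other red cell genes were set beside the members from lists written with earlier results known. Of the embryonic and non-erythroid globins, Hbb-y and Hbb-bh2 had no counts. Over all 6 libraries, Hba-x, Hbq1a and Hbb-bh1 had 1 count each and Hbq1b had 3. Only Cygb (cytoglobin, 22.2 ± 5.64 CPM under ND and 24.5 ± 9.92 CPM under HCD) and Mb were tested, with 0 of 2 past the threshold. Ngb, the neuroglobin gene and next by level in that list, averaged 0.185 CPM and was not tested. The haemoglobin counts were nearly all from the adult genes.

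Of 16 red cell membrane genes, 8 were tested, 5 with a positive and 3 with a negative fold change, a median of 0.16 against 0.01 for all tested genes, and 0 passed. As background for this list and those below, 8237 of all 15539 tested genes had a positive fold change. The 3 with the highest level were Slc2a1, the glucose transporter GLUT1, at 277 ± 33.7 and 229 ± 69.1 CPM under ND and HCD, Epb41, the cytoskeletal protein 4.1, at 82.3 ± 3.14 and 77.9 ± 8.97 CPM, and Aqp1, a water channel, at 23.2 ± 1.33 and 31.5 ± 8.24 CPM. All 3 genes are also expressed outside red cells. The other 5 tested genes averaged 0.869 CPM (Dmtn) to 4.15 CPM (Sptb, the beta-spectrin gene), and the 8 not tested averaged 0.0466 CPM (Kel) to 0.476 CPM (Ermap).

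Of 18 erythroid regulators and late erythroid genes, 17 were analysed here and 9 tested, 3 with a positive and 6 with a negative fold change, a median of -0.07, and 0 passed. Slc25a37, the mitochondrial iron importer mitoferrin 1, was at 202 ± 10.1 and 192 ± 12.2 CPM, Bnip3l, a gene for removal of mitochondria, at 158 ± 20.5 and 140 ± 15.2 CPM, and the transferrin receptor gene Tfrc at 181 ± 68.7 and 103 ± 20.3 CPM under ND and HCD. Among the regulators of the list, the erythropoietin receptor gene Epor averaged 2.89 CPM and the transcription factor genes Tal1 and Nfe2 1.74 and 0.844 CPM. The transcription factor genes Gata1, Klf1 and Gfi1b averaged 0.386, 0.176 and 0.0696 CPM and were not tested (all 6 named after their values were seen). Heme synthesis genes shared by all tissues had a median of 0.05, 6 of 8 positive and 0 past the threshold. The highest were Alad (426 ± 29.0 and 473 ± 66.9 CPM), Fech (112 ± 3.86 and 116 ± 5.80 CPM) and Ppox (75.02 ± 4.08 and 72.4 ± 2.93 CPM).

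Of 12 glycolytic genes around the step of Bpgm, 11 had a negative fold change, against 7302 of all 15539 tested genes. Their median was -0.06, against 0.01 for all genes, and 0 passed. The diets overlapped in the summed level of these genes. It was 8713 to 9617 CPM under ND, and 7565, 8362 and 9875 CPM in HCD 1, HCD 2 and HCD 3. Gapdh was at 3470 ± 190.4 CPM under ND and 3413 ± 527.8 CPM under HCD, the pyruvate kinase gene Pkm at 2106 ± 115.3 and 2017 ± 260.5 CPM, and the enolase gene Eno1 at 1115 ± 53.3 and 1079 ± 142.9 CPM. Pgam1, the phosphoglycerate mutase of main-line glycolysis and a relative of Bpgm, differed by -0.13 ± 0.12 SE on the log2 scale, and Minpp1, a phosphatase that can remove 2,3-bisphosphoglycerate, by -0.06 ± 0.07 SE (both named after their values were seen).

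Genes that clear free haemoglobin and heme had a median of 0.19, with 6 of 8 positive and 0 past the threshold. Lrp1, the receptor for heme bound to hemopexin, was at 604 ± 39.0 and 582 ± 67.2 CPM, the heme oxygenase gene Hmox1 at 90.1 ± 47.2 and 146 ± 99.8 CPM, and the biliverdin reductase gene Blvrb at 79.7 ± 3.81 and 92.2 ± 12.5 CPM under ND and HCD.

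Markers of other cells that arrive with blood or line its vessels were read in the same way. Of 10 platelet markers, 4 were tested, with a median fold change of 0.09, 3 of 4 positive and 0 passed. Their summed level was 24.1 to 38.8 CPM under ND and 30.7 to 40.2 CPM under HCD, led by Ppbp (16.8 ± 4.94 and 18.7 ± 1.75 CPM), Pf4 (10.5 ± 4.30 and 10.6 ± 4.87 CPM) and Itga2b (3.79 ± 1.11 and 3.68 ± 1.13 CPM). Among those not tested, Gp1bb averaged 0.282 CPM, and Gp9, Gp6, Treml1 and Gp5 under 0.1 CPM. Of 12 endothelial markers all 12 were tested and positive, against 8237 of all 15539 tested genes, with a median of 0.41 and 0 passed. None had every HCD library above every ND library, against 4.75% of all tested genes. The sum over these markers was 301 to 356 CPM under ND and 325 to 564 CPM under HCD. HCD 2 alone lay above the ND range, with HCD 1 at 348 and HCD 3 at 325 CPM inside it. Pecam1 was at 57.8 ± 8.64 and 78.7 ± 31.4 CPM, Cdh5 at 51.8 ± 8.03 and 69.5 ± 32.5 CPM and Flt1 at 56.7 ± 5.69 and 59.8 ± 12.0 CPM.

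Neutrophil markers, which also circulate, had a median of -0.54 over the 9 of 10 genes tested, with 6 negative and 0 passed. Ngp (0.65), Ly6g (0.10) and Ltf (0.01) were positive. The sum over the markers was 111 to 199 CPM in ND against 95.2 to 104 CPM in HCD tumours. Of the tested markers, 2 had every HCD library below every ND library, as did 6.36% of all tested genes. Csf3r was at 51.3 ± 7.75 and 35.4 ± 7.31 CPM, Mmp9 at 43.9 ± 17.2 and 30.3 ± 9.06 CPM and S100a9 at 34.4 ± 17.9 and 14.1 ± 1.06 CPM. The sum over endothelial markers was highest in HCD 2, at 564 CPM, the HCD library with the lowest Bpgm. The part of vessels, platelets or neutrophils in the levels of Bpgm was not tested.

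Outside the 7 members, the genes most like the summed globin level and most like Bpgm over the 6 libraries were found by Pearson's correlation of log2 CPM, among named genes averaging 1 CPM or more and without antigen receptor segments. For globin these were Gsg2 (r = 0.99), Erlin1 (0.99), Glt1d1 (0.98), Gars (0.98) and Epb41l1 (0.98), and for Bpgm they were Ppp1r3e (0.997), Ndufs3 (0.99), Mrpl15 (0.99), Aspscr1 (0.99) and Prmt7 (0.99). These values describe likeness over 6 libraries only, and the genes were picked for having the highest of them. The correlations also take no account of the size of a change. From ND 1 to HCD 3, Erlin1 went from 45.2 to 52.6 CPM, Gars from 421 to 507 and summed globin from 40.5 to 186. Of all tested genes, 99.0% had a lower correlation with globin than Alas2 had, 84.6% a lower one than Bpgm and 59.4% a lower one than Slc4a1.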

How the data were processed

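For 6 tumours the deposited table holds 2 kinds of value, the authors' raw counts and their FPKM. The submitters' processing notes name the mm10 build, then edgeR, HTSeq, TopHat2 2.0.9 and CASAVA 1.8, without roles. Not given in the sources used here are annotation, strand setting and treatment of reads with several matches. FPKM values as deposited were the count over the library total and a fixed length per gene. Members, lists and tests were chosen with earlier results of these data known.

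Counts were scaled with TMM factors (0.979 to 1.02) and tested with edgeR 4.0.16 (quasi-likelihood F-test, legacy form) in R 4.3.3, with diet as the only term, the default filter (minimum count 10, total 15), and Benjamini-Hochberg adjustment over 15539 genes with a threshold of 0.05. Fold changes used a prior count of 0.125, and log2 CPM for correlations a prior count of 2. The globin fit added the log2 of the summed CPM of the 4 adult globin genes. Alternatives were DESeq2 1.42.0, limma-voom and limma 3.58.1 on log2(FPKM + 1), with pseudocounts of 0.1 and 5, other scalings and filters, the tumour number as a block, and each library left out. The fits were tested on simulated data. Genes were named as all members, the 3 highest of each list, and the 5 genes most like globin and Bpgm. Locations come from GENCODE M21 and promoters from RefSeq. Precision is limited by depth: a member at 3 to 19 counts (Slc4a1) carries large counting error.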

Additional observations from a re-analysis of the deposited data

How the results depend on the processing

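Depth limits Slc4a1 most, at 3 to 19 counts a library, and unknown sharing of reads limits each globin copy. Under other scalings, filters, tests and pseudocounts, no member that a setting tested passed a threshold of 0.05 (the 1 CPM filter left out Slc4a1, and the filter on FPKM left out Alas2 and Slc4a1), and the log2 fold change of Bpgm was positive, lowest at 0.21 with log2(FPKM + 5), where the pseudocount exceeds its level. Over all genes DESeq2 called 1 higher and 7 lower where edgeR called 0 and 0, and the cause was not tested. Leaving out each library gave 0 to 2 genes lower, the 2 without ND 2. Over the 6 omissions, 1 library each, the log2 fold changes ran from -0.37 to 0.86 for Hbb-bs, -0.19 to 1.09 for Hbb-bt, -0.54 to 0.16 for Alas2 and -0.24 to 1.17 for Slc4a1. The slope of Slc4a1 on globin ran from -0.56 to 0.62 and was 0.12 by limma-voom, and that of Bpgm from 0.03 (without HCD 3) to 0.17 (without HCD 1). The slope of the ratio of Alas2 to Bpgm ran from 0.43 to 0.53, where 5 libraries cannot pass. Without the 2 farthest libraries the correlation of Bpgm turned to -0.19 with Hba-a1 and -0.77 with Alas2.

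The labels number the tumours 1 to 3 in both diets without saying that a number is shared. Deviations of equal numbers from their diet means correlated at -0.31, 0.14 and 0.08, and those of unequal numbers at -0.54 to 0.54. Deviations of 3 libraries from their own mean are tied to one another. These values therefore cannot decide whether equal numbers share an animal, batch or day. With the replicate block 0 genes passed in either direction and the log2 fold change of Bpgm was 0.51 (edgeR adjusted p = 0.865).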
